A study of Homo sapiens with 6 samples.

Results

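The 44 mitosis genes examined here were mitotic cyclins and kinases, kinetochore and spindle proteins, and the factors of chromosome separation and cytokinesis. They were chosen by name, and all 44 were among the 34644 gene names in the deposited tables, each listed once and not split between gene copies. They were read in 6 bulk RNA-seq libraries from HK-2 cells, a line of human proximal tubular epithelial cells immortalized with papillomavirus oncogenes. In 3 libraries the cells carried a negative control lentivirus (IR+NC-LV), and in 3 they carried a lentivirus overexpressing PRDM16, a zinc finger transcriptional regulator (IR+PR-LV), here called the control and the PRDM16 libraries. Cells of both groups were irradiated once with 8 Gy of X-rays and harvested 7 days later, a treatment the study used to induce senescence. Non-transduced cells had been removed with puromycin. All 6 libraries were therefore irradiated, selected lentiviral lines, and no unirradiated library was analysed here. The question addressed by the comparison was whether the expression of the division machinery differed between irradiated cells with and without exogenous PRDM16.

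Mitosis is started by CDK1 bound to cyclin B, which is held inactive until CDC25 phosphatases remove inhibitory phosphates. Kinetochores then capture spindle microtubules while the spindle assembly checkpoint keeps the anaphase-promoting complex switched off, and degradation of securin and cyclin B releases the chromosomes and the cell. Most of the genes concerned are transcribed late in the cell cycle and are silent in cells that have left it, so that their transcripts serve as markers of proliferating cells. In the tubular epithelium, division is rare at rest and returns after injury.

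The total count per library was between 13407074 and 28540041, and every mitosis gene had at least 443 counts in every library. PRDM16 itself had 2, 0 and 1 counts in the control libraries and 14, 10 and 8 in the PRDM16 libraries, a rate 8.51 times as high (exact 95% interval 2.66 to 43.4, which covers counting error only). Of 17 genes typical of tubular epithelium, 9 or 10 reached 1 TPM (a count per gene length, scaled to a fixed sum over all genes) in each library, with a summed level of 1874 to 2226 TPM. KRT8, KRT18, CDH2 and PAX8 were the highest, whereas LRP2, HNF4A, ANPEP and CDH1 stayed below 1 TPM in both group means. LRP2, HNF4A and ANPEP, markers of a differentiated proximal tubule, were thus nearly absent. None of 6 endothelial markers reached 1 TPM in any library, nor did the leukocyte gene PTPRC in either group mean. Summed levels were 107 to 151 TPM for 8 fibroblast markers, mostly LUM, and 159 to 206 TPM for 6 leukocyte markers, mostly CD68. The labels number the libraries within each group without saying that they came from separate cultures, so that p-values measure the spread between these libraries, which may be technical.

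The mitosis genes were expressed at high levels in all 6 libraries. Their mean levels ranged from 32.2 TPM for INCENP to 634 TPM for CCNB1, with a median of 161 TPM, and 37 of the 44 were at or above 100 TPM. Among the 28831 genes with any count, 30 of the 44 lay at or above the 95th percentile of mean TPM and 41 at or above the 90th, and the lowest, INCENP, lay at percentile 81.6. Together they held between 0.899% and 0.971% of the TPM and 1.002% to 1.11% of all counts. For comparison, CDKN1A, which encodes the CDK inhibitor p21, was at 70.7, 71.97 and 74.3 TPM in controls and 67.2, 61.6 and 59.2 TPM with PRDM16, and 41 of the 44 mitosis genes lay above it in mean TPM. In RNA from whole cultures, a smaller share of dividing cells and less RNA per cell cannot be told apart.

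**Figure D1:**
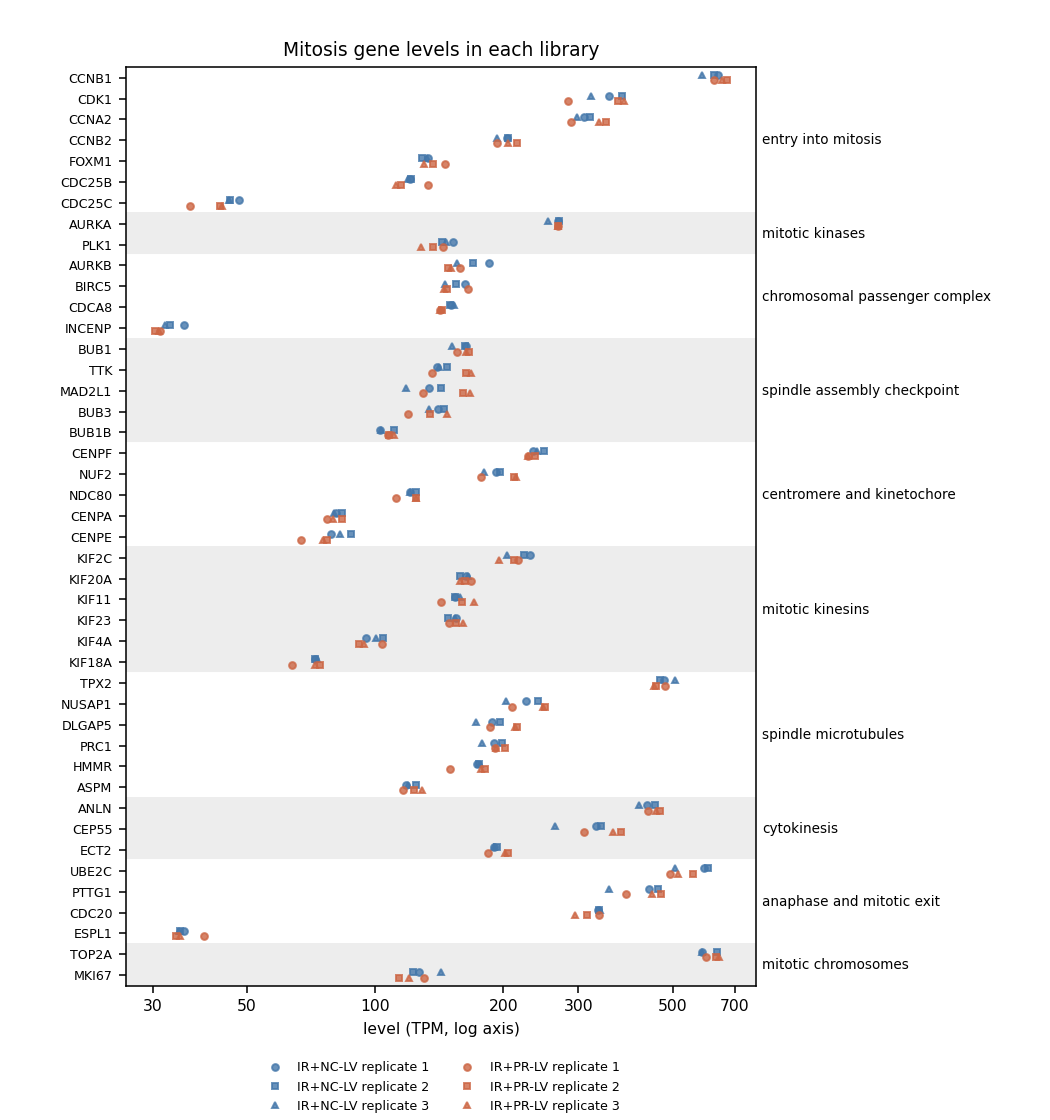
Level in TPM (x axis, log scale) of each of the 44 mitosis genes (y axis, grouped by role and sorted by mean level within a role) in each library. Blue symbols are the 3 IR+NC-LV libraries and orange symbols the 3 IR+PR-LV libraries. The 6 symbols of a gene lie close together beside the range between genes, from 32.2 TPM for INCENP to 634 TPM for CCNB1.

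The highest levels were found in genes of several roles. CCNB1, cyclin B1, was at 617 ± 28.2 TPM in controls and 652 ± 22.96 TPM with PRDM16 (SD, n = 3 each). TOP2A, the topoisomerase that disentangles replicated chromosomes, was at 603 ± 28.3 TPM in controls and 625 ± 22.9 TPM with PRDM16 (SD, n = 3 each). UBE2C, the ubiquitin-conjugating enzyme of the anaphase-promoting complex, was at 568 ± 53.4 TPM in controls and 522 ± 33.6 TPM with PRDM16 (SD, n = 3 each). These 3 did not keep a fixed order, since TOP2A lay above CCNB1 in control replicates 2 and 3 and UBE2C lay above TOP2A in control replicate 1. TPX2, which activates AURKA on the spindle, was at 473 TPM over the 6 libraries, ANLN, the actin-binding anillin of the cleavage furrow, at 445 TPM and PTTG1, securin, at 427 TPM. At the low end stood CDC25C (43.8 TPM), the separase gene ESPL1 (35.6 TPM) and INCENP (32.2 TPM), the scaffold of the chromosomal passenger complex. MKI67, the gene of the proliferation antigen Ki-67, was at 131 ± 10.8 TPM in controls and 121 ± 8.56 TPM with PRDM16 (SD, n = 3 each). TPM divides by all annotated exon bases of a gene, 13228 for MKI67 and 7703 for BUB3, so that genes with long alternative exons are placed lower by this scale.

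The genes were not chosen by the sequence of their promoters. The CHR described next is, however, a motif known from genes of this kind, so that its share among them is no independent result. The cell cycle genes homology region (CHR) is a short promoter element through which the DREAM and MuvB complexes hold late cell cycle genes silent in resting cells and activate them in dividing ones, and CCAAT boxes bind the factor NF-Y. RefSeq promoter windows (GRCh38.p14, 250 bases before to 50 bases after a transcript start) were at hand for 37 of the 44 genes, as 47 windows, some of which overlap and hold the same match. AURKA, BIRC5, BUB3, FOXM1, TPX2, TTK and UBE2C had none in the table. The letters TTTGAA or TTCGAA, searched on both strands, occurred in a window of 30 of these 37 genes (81.1%), against 19.5% of all 27305 gene symbols in the table. A match beginning within 50 bases of a start was present for 26 of the 37 (70.3%), against 6.24% of all symbols. The pentamer CCAAT, on both strands, occurred for 31 of the 37 (83.8%, against 39.7% of all symbols). The E2F heptamer TTCCCGC, on both strands, occurred for 4 (10.8%, against 7.82%). Of the 46 CHR matches, 22 began in the last 50 bases before a start, and for PLK1 and CCNB2 this was at position -29, for BUB1B and CDCA8 at -23. Of the 74 CCAAT matches, 61 began more than 50 bases before a start. A match is a description of the letters and does not show a site in use.

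Of the 17 mitosis genes with the smallest unadjusted p or the highest TPM of their role, CEP55, DLGAP5, TOP2A, ANLN and CDC25C have a CHR match upstream of a start. Stretches are shown for the first 3, and not for ANLN and CDC25C, whose matches lie in an annotated exon. They are not typical of the 44 genes, since the CHR matches marked in them begin more than 100 bases before the start, and not in the last 50 bases as in PLK1 (CHR at -29, CCAAT box at -73). The stretches are read 5′ to 3′ along the gene's strand and credited to RefSeq (GRCh38.p14), and capitals mark CHR matches and CCAAT boxes on either strand. No other motif was marked.
CEP55 (chr10:93496476-93496611, plus strand): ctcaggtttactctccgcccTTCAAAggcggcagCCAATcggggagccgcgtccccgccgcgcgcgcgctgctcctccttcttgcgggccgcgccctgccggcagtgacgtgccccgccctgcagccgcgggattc
DLGAP5 (chr14:55191586-55191694, minus strand): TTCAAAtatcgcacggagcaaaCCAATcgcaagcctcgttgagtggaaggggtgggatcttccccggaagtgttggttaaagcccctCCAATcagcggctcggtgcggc
TOP2A (chr17:40417903-40418110, minus strand): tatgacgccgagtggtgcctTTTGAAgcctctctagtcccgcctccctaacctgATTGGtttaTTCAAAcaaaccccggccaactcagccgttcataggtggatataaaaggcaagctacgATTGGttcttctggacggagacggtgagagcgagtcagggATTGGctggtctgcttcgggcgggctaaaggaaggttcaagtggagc
The reverse complement of TTTGAA reads TTCAAA. In the CEP55 stretch the CHR match begins at position -116 and the CCAAT box at -102. A further CHR match of CEP55, at -3, runs past the end of the stretch. In the DLGAP5 stretch the CHR match at -109 is followed by CCAAT boxes at -87 and -22, and further CHR matches at -138 and 4 lie outside it. The TOP2A stretch has CHR matches at -194 and -151 and CCAAT boxes at -160, -93 and -53, and a further CCAAT box at -244 lies outside it.

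In the comparison of PRDM16 with control libraries, no mitosis gene passed the threshold. Counts were compared over the 15340 genes and gene copies that passed a filter on low counts, all 44 mitosis genes among them, with edgeR's quasi-likelihood test and Benjamini-Hochberg adjustment at an adjusted p-value of 0.05. The count was 0 of 44, where 0.0652% of all genes tested passed (10, of which 3 were higher and 7 lower), and it was also 0 of 44 with DESeq2. At an unadjusted p-value under 0.05 it was again 0 of 44 (1 of 44 with DESeq2), where 10.5% of all genes tested lay under it, and 10.8% of the 6274 genes at or above the mitosis gene with the lowest mean count. In CPM (counts scaled to library size after TMM normalization, the scale of the test), the groups of libraries overlapped for all 44 genes, whereas they did not overlap for 17.0% of all genes tested and for 18.1% of the 6274. In the deposited TPM, they did not overlap for 4 of the 44, all lower with PRDM16 (CDC25C, INCENP, CDCA8 and CENPE), where 15.6% of all genes tested did not overlap in either direction and 11.2% were lower.

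The sizes of the differences were small. Log2 fold changes (positive values are higher with PRDM16) ran from -0.15 for CENPE to 0.25 for MAD2L1, with a median of 0.052, beside a median of 0.0044 over all genes tested and of 0.032 over the genes of at least the lowest mitosis gene's level. There were 28 positive and 16 negative values. All 44 of the 95% intervals held 0. For 43 genes the interval lay within 0.5 of 0 on the log2 scale, and for 32 within 0.3. The widest excursion was the upper bound of MAD2L1, a 1.43-fold higher level with PRDM16, and the lowest bound was that of CDC25C, at 0.791 of the control level. Gene by gene, no interval reached a 1.5-fold difference in either direction, which does not show the groups to be equal.

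**Figure D2:**
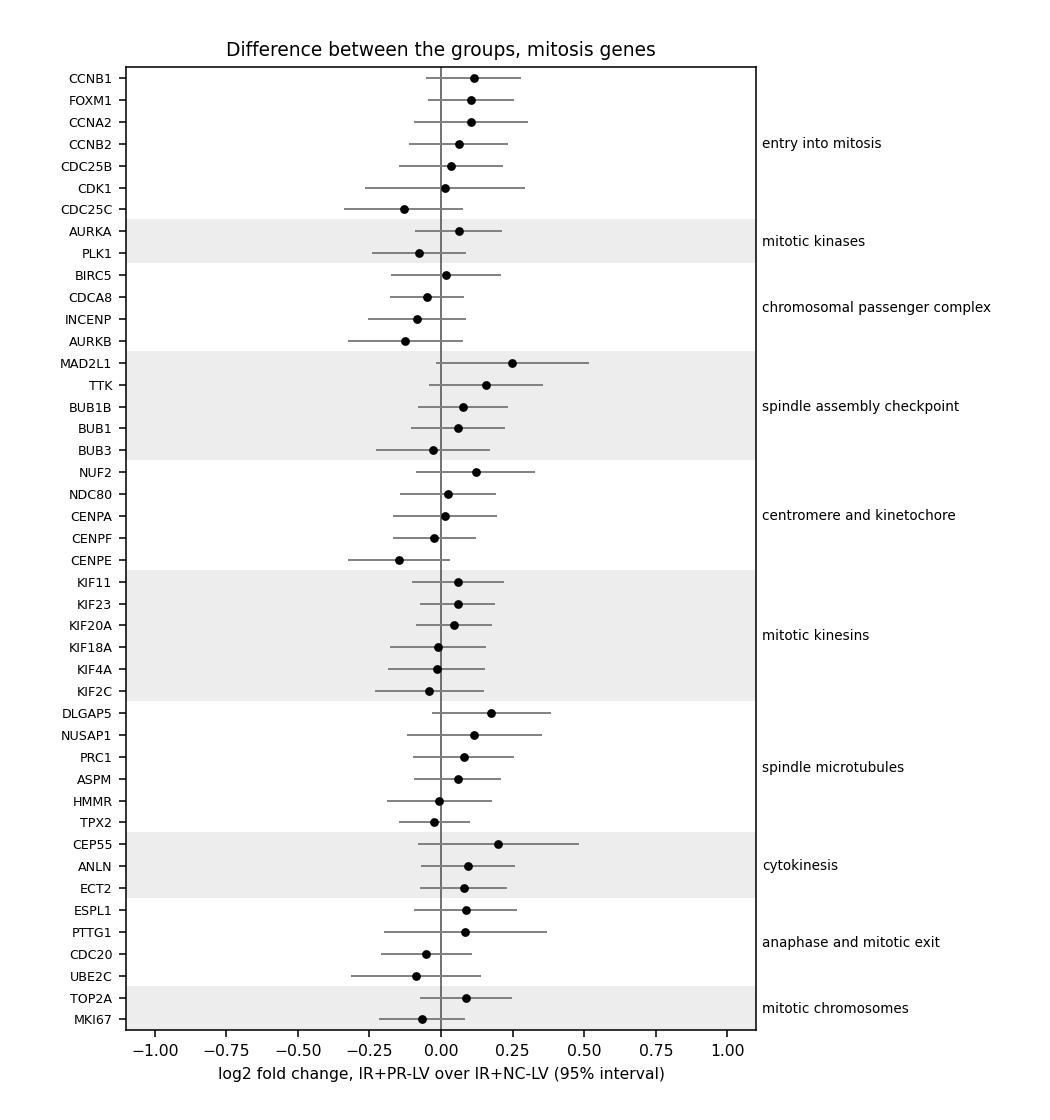
Log2 fold change of IR+PR-LV over IR+NC-LV (x axis) for each of the 44 mitosis genes (y axis, grouped by role), with bars for the 95% interval from edgeR. Every bar crosses 0, and values run from -0.15 for CENPE to 0.25 for MAD2L1.

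**Figure D3:**
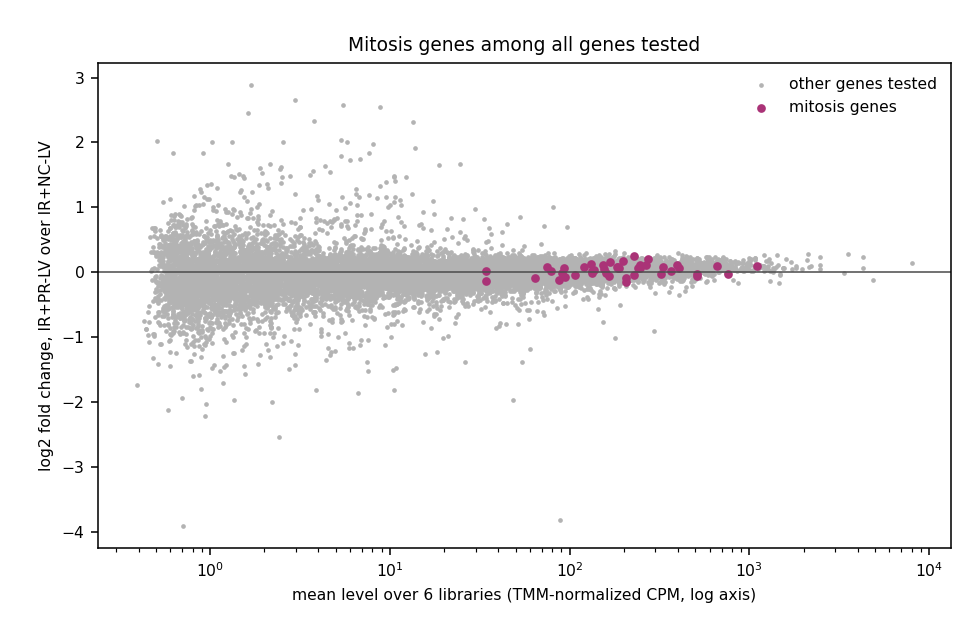
Log2 fold change of IR+PR-LV over IR+NC-LV (y axis) against the mean level in TMM-normalized CPM (x axis, log scale) for the 15340 genes tested. Purple points are the 44 mitosis genes, which lie at the right of the cloud and between -0.15 and 0.25.

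Genes of entry into mitosis were taken first. CCNB1 (hg38, chromosome 5, 69167150 to 69178245, plus strand) had 399.8, 397 and 341 CPM in the controls and 396, 429 and 408 CPM with PRDM16. Control replicate 3 was the lowest and the other 5 libraries lay together (log2 fold change 0.11, standard error 0.074, adjusted p = 0.631 from edgeR). CDK1, its kinase partner, had 371, 405 and 314 CPM in the controls and 301, 398 and 401 CPM with PRDM16. The lowest library of each group stood well below the other two, and the group difference was far inside that spread (log2 fold change 0.015, 95% interval -0.27 to 0.29). CDC25C (chromosome 5, 138285265 to 138338355, minus strand), a phosphatase that activates CDK1, had 37.9, 36.8 and 33.5 CPM in the controls and 29.4, 34.8 and 34.5 CPM with PRDM16 (log2 fold change -0.13, standard error 0.092, adjusted p = 0.666 from edgeR). Here the lowest value came from PRDM16 replicate 1, and the highest PRDM16 value lay between the control values. FOXM1, the transcription factor of late cell cycle genes, had 152, 151 and 142 CPM in the controls and 169, 160.3 and 149 CPM with PRDM16 (log2 fold change 0.10, standard error 0.067, adjusted p = 0.627 from edgeR). Its highest library was PRDM16 replicate 1, and PRDM16 replicate 3 lay under 2 of the control libraries. CCNA2, CCNB2 and CDC25B, encoding cyclins A2 and B2 and a second CDC25 phosphatase, had log2 fold changes of 0.10, 0.062 and 0.034. FOXM1 shares 12.1% of its exon bases with ITFG2 on the other strand, CCNA2 9.24% with EXOSC9 and CDC25C 6.89% with FAM53C. The overlap may have affected their counts unless strand was used, and the sources used here do not give this setting. Overlaps of 1.61% to 4.69% of exon bases with another gene were found for ANLN, MAD2L1, KIF20A, PLK1, KIF23 and BUB1B. That of BUB1B was with BUB1B-PAK6 on the same strand, which a strand setting cannot resolve.

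Of the mitotic kinases, AURKA, which matures centrosomes, had 249.5, 255 and 220.3 CPM in the controls and 253, 255 and 249 CPM with PRDM16 (log2 fold change 0.062, standard error 0.067, adjusted p = 0.786 from edgeR). Apart from control replicate 3, its libraries were within a few CPM of each other. PLK1, which acts from centrosome to cytokinesis, had a log2 fold change of -0.078, with an interval of -0.24 to 0.086. The chromosomal passenger complex corrects faulty attachments through the kinase AURKB and its partners INCENP, BIRC5 (survivin) and CDCA8 (borealin). AURKB had 101, 94.3 and 79.2 CPM in the controls and 87.1, 82.6 and 82.1 CPM with PRDM16 (log2 fold change -0.13, standard error 0.089, adjusted p = 0.671 from edgeR). All 3 PRDM16 values fell between the highest and the lowest control value. INCENP and CDCA8 had log2 fold changes of -0.084 and -0.049, and BIRC5 one of 0.018.

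The spindle assembly checkpoint held the gene with the largest difference. MAD2L1 (chromosome 4, 120055623 to 120066848, minus strand) encodes MAD2, which sequesters the activator of the anaphase-promoting complex, and had 215, 234 and 177 CPM in the controls and 211, 265 and 268 CPM with PRDM16. PRDM16 replicates 2 and 3 were the highest of the 6, but PRDM16 replicate 1 lay below 2 of the control libraries. The test gave an unadjusted p of 0.0648 (log2 fold change 0.25, standard error 0.12, adjusted p = 0.502 from edgeR). TTK, the checkpoint kinase MPS1, had 158, 170.2 and 149 CPM in the controls and 155, 188 and 189 CPM with PRDM16. It showed a like order, with PRDM16 replicate 1 among the control values (log2 fold change 0.16, standard error 0.088, adjusted p = 0.571 from edgeR). BUB1, a kinase that recruits checkpoint proteins to kinetochores, had 191, 194 and 165 CPM in the controls and 184, 199 and 191 CPM with PRDM16 (log2 fold change 0.059, standard error 0.073, adjusted p = 0.814 from edgeR). BUB1B and BUB3, its partners in the checkpoint, had log2 fold changes of 0.077 and -0.029. With PRDM16 replicate 1 left out, MAD2L1 and TTK had log2 fold changes of 0.35 and 0.25, and edgeR gave adjusted p-values of 0.186 and 0.164. With control replicate 3 left out they had 0.15 and 0.12.

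At the centromere and kinetochore, CENPE, a kinesin that carries chromosomes to the spindle equator, had the most negative value. CENPE (chromosome 4, 103105811 to 103198408, minus strand) had 208, 237 and 204 CPM in the controls and 179.6, 208 and 199 CPM with PRDM16 (log2 fold change -0.15, standard error 0.079, adjusted p = 0.557 from edgeR). Control replicate 2 was the highest and PRDM16 replicate 1 the lowest, while the other 4 libraries lay together. CENPF, a large protein of the outer kinetochore, had 753, 814 and 716 CPM in the controls and 741, 776 and 729.8 CPM with PRDM16 (log2 fold change -0.023, standard error 0.064, adjusted p = 0.921 from edgeR). NDC80 and NUF2, subunits of the complex that grips microtubules, had log2 fold changes of 0.023 and 0.12, and the centromeric histone CENPA one of 0.013.

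The 6 mitotic kinesins had the narrowest range of the roles, with log2 fold changes between -0.040 for KIF2C and 0.060 for KIF11. KIF2C, a microtubule depolymerase, had 248, 244 and 204 CPM in the controls and 236, 232 and 209.7 CPM with PRDM16 (log2 fold change -0.040, standard error 0.085, adjusted p = 0.894 from edgeR). KIF11, the motor that pushes the spindle poles apart, had a 95% interval of -0.10 to 0.22. KIF23 and KIF20A, motors of the central spindle, had log2 fold changes of 0.058 and 0.045, and KIF4A and KIF18A of -0.015 and -0.0093.

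Genes of the spindle microtubules were led by DLGAP5, which stabilizes kinetochore fibres. It lies on chromosome 14, 55148130 to 55191585, minus strand, and had 190.2, 202 and 162 CPM in the controls and 190.0, 222 and 215 CPM with PRDM16 (log2 fold change 0.18, standard error 0.092, adjusted p = 0.544 from edgeR). PRDM16 replicates 2 and 3 were above all others, and PRDM16 replicate 1 lay within the control values. TPX2 had 515, 514 and 513 CPM in the controls and 526, 504 and 487 CPM with PRDM16, which made it the steadiest of the genes described in full (log2 fold change -0.024, standard error 0.055, adjusted p = 0.905 from edgeR). NUSAP1, PRC1, ASPM and HMMR, which bundle microtubules or focus the spindle poles, had log2 fold changes of 0.12, 0.079, 0.059 and -0.0053. HMMR shares 10.1% of its exon bases with HMMR-AS1 and PRC1 10.8% with PRC1-AS1 on the opposite strand.

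All 3 cytokinesis genes had positive values, none past the threshold. CEP55, which recruits the abscission machinery to the midbody, had 273, 285 and 204 CPM in the controls and 258, 319 and 298 CPM with PRDM16 (log2 fold change 0.20, standard error 0.13, adjusted p = 0.618 from edgeR). Control replicate 3 was far below the other 5 libraries, and PRDM16 replicate 1 lay below the other control values. ANLN had 647, 691 and 579.9 CPM in the controls and 659, 710.0 and 678 CPM with PRDM16 (log2 fold change 0.094, standard error 0.073, adjusted p = 0.696 from edgeR). ECT2, the exchange factor that activates RhoA at the furrow, had a log2 fold change of 0.079.

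Genes of anaphase and mitotic exit were split in sign. UBE2C had 223, 232 and 178 CPM in the controls and 188, 215 and 193 CPM with PRDM16 (log2 fold change -0.088, standard error 0.10, adjusted p = 0.797 from edgeR). Here control replicate 3 and PRDM16 replicate 1 were the lowest libraries. CDC20, the activator of the anaphase-promoting complex in mitosis, had a log2 fold change of -0.052, PTTG1 of 0.084 and ESPL1 of 0.086. The pair of genes for mitotic chromosomes also differed in sign. TOP2A had 1051, 1159.7 and 981 CPM in the controls and 1086, 1159.6 and 1147 CPM with PRDM16 (log2 fold change 0.088, standard error 0.071, adjusted p = 0.71 from edgeR). MKI67 had 516, 508 and 543 CPM in the controls and 538, 472 and 488 CPM with PRDM16 (log2 fold change -0.066, standard error 0.066, adjusted p = 0.769 from edgeR). No other mitosis gene had its highest CPM in control replicate 3.

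Differences between libraries of one group were shared by many of these genes. In log2 CPM, 42 of the 44 genes lay below their own mean over the 6 libraries in control replicate 3, and for 31 of them it was the lowest library. How many of all genes tested lay so in control replicate 3 was not counted. The median deviation there was -0.13, beside 0.014 and 0.059 in control replicates 1 and 2 and -0.026, 0.064 and 0.021 in the PRDM16 replicates. Control replicate 3 was also the library with the lowest total count and the highest TMM factor (1.04). In the deposited TPM, where no such factor enters, it was the lowest library for 11 genes and PRDM16 replicate 1 for 16. Without control replicate 3, the median log2 fold change of the 44 genes was -0.0071 (21 positive, 23 negative), against 0.052 with it. The part of depth and normalization in this was not tested.

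**Figure D4:**
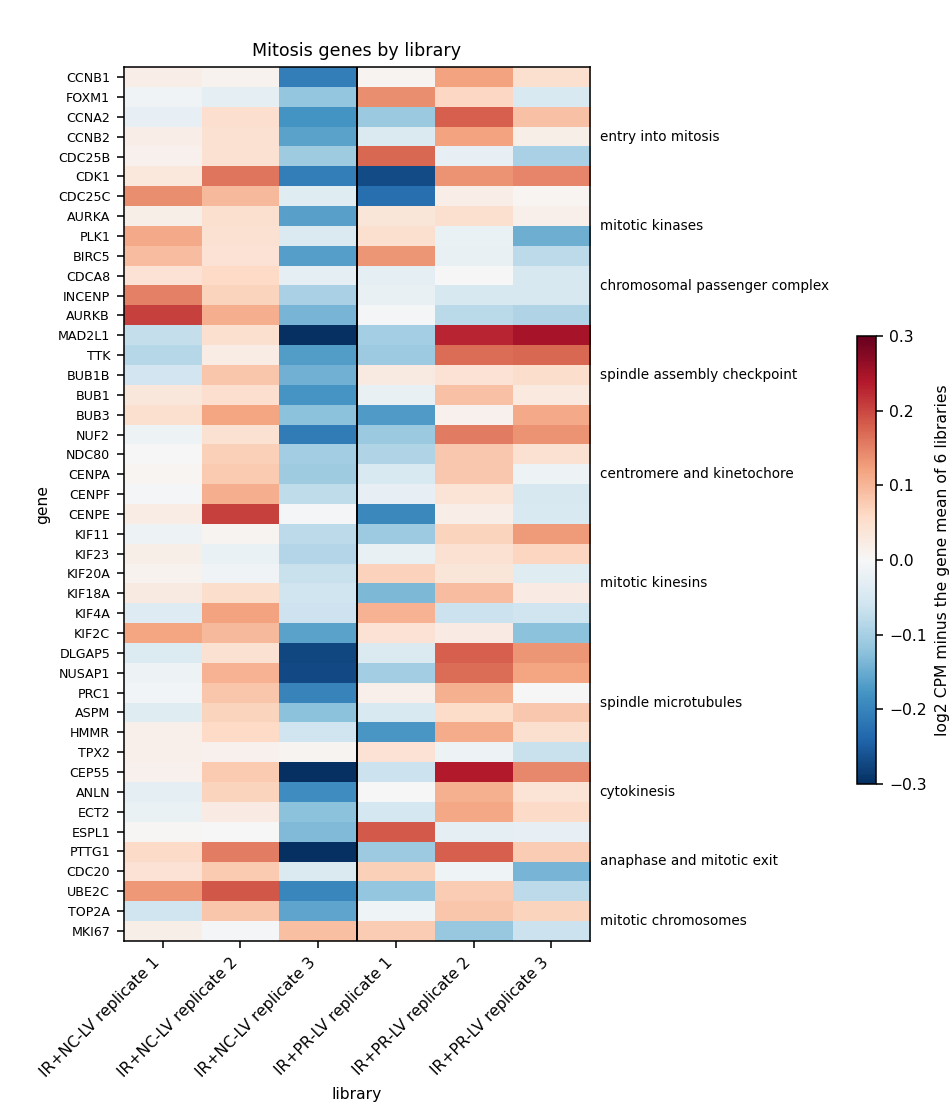
Deviation of log2 CPM from each gene's mean over the 6 libraries (colour, saturated at 0.3 in either direction) for the 44 mitosis genes (y axis, grouped by role) in each library (x axis, the line divides IR+NC-LV from IR+PR-LV). IR+NC-LV replicate 3 is below the mean for 42 of the 44 genes.

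The PRDM16 libraries parted by base composition. Across all genes tested with a known sequence, log2 CPM rose relative to the mean of the libraries by 0.11 per 10 percentage points of GC content in PRDM16 replicate 1 and fell by 0.087 in replicate 3, and the slope of the other 4 libraries was between -0.027 and 0.0072. The GC content of the mitosis genes had a median of 43.2% (35.3% to 59.6%), below the 48.2% of all genes tested. The 22 mitosis genes at or below their median GC deviated by a median of -0.096 in PRDM16 replicate 1, 0.11 in replicate 2 and 0.074 in replicate 3. The 22 above it deviated by 0.040, 0.011 and -0.048. In control replicates 1 to 3, the genes at or below it deviated by -0.0089, 0.056 and -0.16, and those above it by 0.018, 0.062 and -0.11. With the dependence on GC content and length taken out of every library, a setting chosen after seeing the data, 0 of the 44 genes passed the threshold (smallest adjusted p = 0.298 from edgeR) and the median log2 fold change was 0.053.

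Transcripts of proteins that work together were also set against each other within each library. All ratios here are of TPM in the same library, as the mean ± SD of 3 libraries a group, and describe transcripts, not proteins. NUF2 stood to NDC80 at 1.56 ± 0.0535 in controls and 1.66 ± 0.0690 with PRDM16. AURKB stood to INCENP at 5.08 ± 0.186 and 4.95 ± 0.109, CDCA8 to INCENP at 4.53 ± 0.273 and 4.62 ± 0.0966, and BIRC5 to INCENP at 4.61 ± 0.0755 and 4.95 ± 0.328, so that the scaffold was the lowest of the passenger complex in TPM. The size of these ratios depends on the length divisor, 6477 exon bases for INCENP against 1770, 2371 and 2808 for AURKB, CDCA8 and BIRC5. In mean CPM of the controls, INCENP was at 65.7, AURKB at 91.4, CDCA8 at 109 and BIRC5 at 132. Cyclin B1 stood to CDK1 at 1.76 ± 0.0995 and 1.91 ± 0.266, the second with the highest ratio, 2.21, in PRDM16 replicate 1. The same cyclin stood to cyclin B2 at 3.07 ± 0.0548 and 3.19 ± 0.0556. BUB1B stood to BUB1 at 0.664 ± 0.0322 and 0.672 ± 0.0223. Securin exceeded separase, with a ratio of PTTG1 to ESPL1 between 9.78 and 13.8 over the 6 libraries. This ratio also depends on the length divisor, 1417 exon bases for PTTG1 against 6882 for ESPL1. In mean CPM of the controls, PTTG1 was at 181 and ESPL1 at 72.8. Of the 14 ratios computed, the groups overlapped in all 14.

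The rest of the division machinery was read from lists of other genes. Of 33 other kinetochore and centromere genes, 0 passed the threshold, and their median log2 fold change was 0.031 (20 positive, 13 negative). The same count was 0 of 19 for condensin and cohesin genes (median 0.035), 0 of 33 for other spindle, centrosome and cytokinesis genes (median -0.0082) and 0 of 14 for other entry and cell cycle kinase genes (median -0.00027). It was 0 of 17 for genes of the anaphase-promoting complex and its regulators (median 0.032) and 0 of 23 for replication and G1/S genes (median 0.0035). At an unadjusted p-value under 0.05 these lists held 1, 1, 1, 0, 1 and 1 genes in that order, where 10.5% of all genes tested did. PDS5A, which regulates cohesin, had a log2 fold change of 0.13 (adjusted p = 0.462 from edgeR), ANAPC5, a scaffold subunit of the anaphase-promoting complex, of 0.14 (adjusted p = 0.443 from edgeR), TRIP13, the ATPase that recycles MAD2, of 0.18 (adjusted p = 0.638 from edgeR) and PCNA, the sliding clamp of replication, of 0.19 (adjusted p = 0.372 from edgeR).

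The larger values in these lists came from genes with several listed copies. SPC25, a kinetochore subunit, had 2.15, 2.09 and 2.02 CPM in the controls and 1.85, 2.68 and 21.4 CPM with PRDM16 at its copy with the most counts, so that 1 library set its log2 fold change of 2.03 (adjusted p = 0.435 from edgeR). KIFC1, a minus-end kinesin, had 9.60, 15.2 and 14.3 CPM in the controls and 3.39, 8.69 and 5.49 CPM with PRDM16 at its copy with the most counts (log2 fold change -1.13, standard error 0.30, adjusted p = 0.264 from edgeR). Its 3 copies summed gave a log2 fold change of -0.51 with an adjusted p of 0.563 from edgeR, and the 2 of SPC25 gave 1.15 with 0.501, so that the values of both genes are uncertain.

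Among 17 regulators of mitosis gene transcription, 0 passed the threshold, while 7 had an unadjusted p-value under 0.05, 3 of them higher and 4 lower with PRDM16, where 4.55% of all genes tested were higher and 5.97% lower. The groups did not overlap in CPM for 3 that were higher and 4 that were lower, where this held for 7.46% and 9.54% of all genes tested. This list was chosen with earlier results of these data known, so that the counts describe it and are no test of it. E2F8, an E2F family repressor, had 12.6, 11.2 and 14.8 CPM in the controls and 7.92, 8.80 and 7.72 CPM with PRDM16, with every PRDM16 library below every control library (log2 fold change -0.65, standard error 0.14, adjusted p = 0.148 from edgeR). CDKN1A had 73.6, 76.4 and 72.3 CPM in the controls and 70.9, 65.5 and 61.5 CPM with PRDM16, likewise without overlap (log2 fold change -0.17, standard error 0.071, adjusted p = 0.453 from edgeR). NF-Y, which binds the CCAAT boxes described above, has 3 subunits. NFYA and NFYB were higher without overlap, with log2 fold changes of 0.18 and 0.22, and NFYC lower, at -0.31, with adjusted p-values from 0.381 to 0.397 in the edgeR test. TFDP2, a partner of the E2F factors, had a log2 fold change of 0.17 and LIN37, a DREAM subunit, of -0.40, the latter with overlapping groups. LIN54, the DREAM subunit that binds the CHR, had a log2 fold change of -0.16 without overlap (adjusted p = 0.488 from edgeR). None of the 44 mitosis genes showed such a separation in CPM.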

How the data were processed

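Poly(A) RNA of 6 libraries of irradiated HK-2 cells was sequenced as paired ends by the study. Adapter-containing and low-quality reads were discarded by the study. The authors deposited, for every library, unnormalized counts of reads per gene together with TPM and FPKM values. The deposited TPM and deposited FPKM both follow from the count and the gene length. Per the labels, reads were counted with featureCounts 2.0.1 on hg38, and CASAVA and DESeq2 1.16.1 were also used. The aligner and the strand setting are not given in the sources used here. FPKM values were not entered into any comparison.

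Counts were compared with edgeR 4.0.16 in R 4.3.3, using filterByExpr (minimum count 10, minimum total count 15), TMM factors of 0.981 to 1.04 and the quasi-likelihood test (IR+PR-LV against IR+NC-LV, 3 libraries each, no covariates), with Benjamini-Hochberg adjustment over 15340 genes and gene copies and a threshold of 0.05. Standard errors and 95% intervals come from the same fit, whose biological coefficient of variation was 0.106. Library deviations use log2 CPM with a prior count of 2. A gene with several listed copies was read at the copy with the most counts. GC content was taken from the longest GENCODE release 29 transcript of a gene name, for 90.4% of the genes tested and all 44 mitosis genes, and its trend was removed with splines of 4 degrees of freedom. The procedure was also run on simulated counts, and the outcome of that run is not given here.

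All mitosis genes are named by role. Full values are given for the 8 with the smallest unadjusted p, since none passed the threshold, and for the highest in TPM of each role, and the gene with the smallest unadjusted p is named from each other list. CDK1 and MKI67 were given in full, and further regulators named, after their values were seen. The genes, lists and motifs were chosen with earlier results of these data known. Other settings were DESeq2 1.42.0, upper-quartile or RLE normalization, filters on low counts, a block for the replicate number, leaving out a library, summed gene copies and, chosen after seeing the data, removal of GC and length trends.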

Additional observations from a re-analysis of the deposited data

How the results depend on the processing

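No mitosis gene passed the threshold under any of the 14 other settings, with a smallest adjusted p of 0.164 for TTK (without PRDM16 replicate 1, edgeR). Their median log2 fold change was between 0.041 and 0.063 with all 6 libraries. With one library left out it was between -0.0071 (without control replicate 3) and 0.070 (without control replicate 2). Mitosis genes with an unadjusted p-value below 0.05 numbered 1 with DESeq2, 4 without the filter on low counts, 2 after removal of GC and length trends, 2 without control replicate 2 and 6 without PRDM16 replicate 1, all higher with PRDM16, and 2 without control replicate 3, both lower. The share of all genes tested under that cut was 10.5% in the main fit. It was not computed for these settings, so that these counts cannot be read as particular to the mitosis genes. Of 616 values of single genes under other settings, 584 kept their sign and their side of the threshold and 32 changed sign. These were KIF18A (0.0022 with DESeq2, 0.00018 without the filter), HMMR (0.0062 and 0.0042) and CDK1 (-0.0050 after removal of GC and length trends), and 15 genes when one library was left out, whose ranges were BIRC5 -0.053 to 0.065, BUB1 -0.0073 to 0.098, BUB3 -0.094 to 0.046, CDC20 -0.10 to 0.0028, CDC25B -0.045 to 0.090, CDK1 -0.078 to 0.14, CENPA -0.032 to 0.056, CENPF -0.063 to 0.026, HMMR -0.065 to 0.075, KIF18A -0.060 to 0.052, KIF2C -0.12 to 0.010, KIF4A -0.071 to 0.042, NDC80 -0.019 to 0.072, PTTG1 -0.050 to 0.19 and TPX2 -0.051 to 0.0028. Over the whole table, the number of genes past the threshold was 10. It became 166 with DESeq2, 342 without the filter on low counts, 51 after removal of GC and length trends, and 1 to 28 with one library left out, and the cause was not tested. With the replicate number as a block it was 3, and the median of the mitosis genes was 0.051. Same-numbered libraries of the groups had correlations of deviations of -0.0088, 0.051 and 0.071, the last being the largest of all pairs. Pairs of unlike number ran from -0.097 to 0.062. Whether same-numbered libraries shared a culture or a batch was not tested. PRDM16 replicate 2 correlated more with control replicate 1 (0.062) than with control replicate 2. What could be detected differed between the mitosis genes, whose standard errors ran from 0.055 to 0.13 on the log2 scale.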
